A study of Mus musculus with 8 samples.

Results

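The TRIM genes encode tripartite motif proteins, most of them ubiquitin ligases, and were examined here in granulocyte-macrophage progenitors (GMP), bone marrow precursors of neutrophils and monocytes. Members were all protein-coding genes of the deposited table whose symbol is Trim followed by a number and, in some, a letter. This gave 48 of 23131 genes, chosen by name and type alone. The 8 libraries came from C57BL/6 mice with floxed Rnaseh2b on both alleles: 4 carried Vav-Cre (labelled Rnaseh2bfl/fl VavCre+ or RH2hKO; called knockouts 5 to 8), and 4 were Cre-negative littermates (Rnaseh2bfl/fl VavCre- or RH2hWT; controls 1 to 4). The deleted gene codes for 1 part of RNase H2, an enzyme that takes ribonucleotides out of DNA. Both groups carry the floxed alleles, Vav-Cre is active in blood-forming cells generally and not in GMP alone, and a control that carries Cre without floxed alleles was not analysed here. The labels give no age. GMP were sorted as CD16/32-high CD34+ cells within the gate that the labels call LE-K.

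Most TRIM proteins have a RING domain, which recruits the ubiquitin-loaded enzyme, followed by B-box domains and a coiled coil through which they pair. Some, such as the products of Trim14, Trim16, Trim44 and Trim66, lack the RING domain. They differ mostly in the carboxy-terminal part that binds the target. One branch of the family is known for defence against viruses: some members bind incoming capsids, others build ubiquitin chains on nucleic acid sensors and their adaptors, and several are induced by interferon. Another branch works in nearly every cell, as chromatin cofactors, in protein turnover or in vesicle traffic. The comparison asked which members differ in GMP when Rnaseh2b is deleted.

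The knockout was seen in the targeted gene, with a control mean of 1804 ± 669 and a knockout mean of 104 ± 23.2 (normalised counts, mean ± SD, n = 4 mice each; limma adjusted p = 3.76e-07). Depth was 28352720 to 45655518 reads assigned to genes per library. All 11 GMP marker genes fixed for the check had a mean of at least 10 normalised counts, while none of 8 lymphoid markers reached it. The summed level of the 11 was 1258202 to 1364188 in controls and 1138933.5 to 1197398 in knockouts, so every knockout lay below every control. Most of it was Mpo (control mean 806205, knockout mean 739426). At an unadjusted p below 0.05 (limma), 1 of the 11 was higher and 4 were lower, where 6.74% and 6.44% of all genes tested were. Over the whole table, 234 of 16688 genes tested changed (limma, Benjamini-Hochberg adjusted p below 0.05), 199 upward. Control 1 and knockout 8 stand apart: 371 genes changed without control 1, 569 without knockout 8 and 1440 without both. With both left out, or knockout 8 alone, every remaining knockout has a lower sample number than every control, and order and genotype cannot be told apart there.

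No TRIM gene passed the test in either direction. Of 48 members, 43 had the mean of at least 10 normalised counts needed for testing, and 0 of these changed, against 1.4% of all genes tested. The lowest adjusted p was 0.088 (limma). At an unadjusted p below 0.05, 7 members were higher in knockouts and 1 was lower, where 6.74% and 6.44% of all genes tested were. By edgeR's quasi-likelihood test on the recovered reads 0 members passed (1.44% of all genes), and by DESeq2 4 did (3.35% of all genes): Trim30d, Trim11, Trim30a and Trim62, all higher in knockouts. With all totals set equal 1 passed (1.68% of all genes), as did 1 with no intensity trend (0.623%), 1 without control 1 (2.22%), 2 without knockout 8 (3.41%) and 7 without both (8.62%; 3.9% higher). All 4 knockouts lay above all 4 controls for 5 members (11.6% of 43), where 3.99% of all genes tested did so. For 0 members did all knockouts lie below all controls, where 3.42% of all genes tested did.

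The 5 members whose groups did not overlap were Trim30a, Trim11, Trim30d, Trim46 and Trim62. Their fold changes lay between 1.23 and 1.6. In GMP from whole sorted populations, fewer cells of one type and less RNA per cell cannot be told apart, which holds for every value given here.

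**Figure D1:**
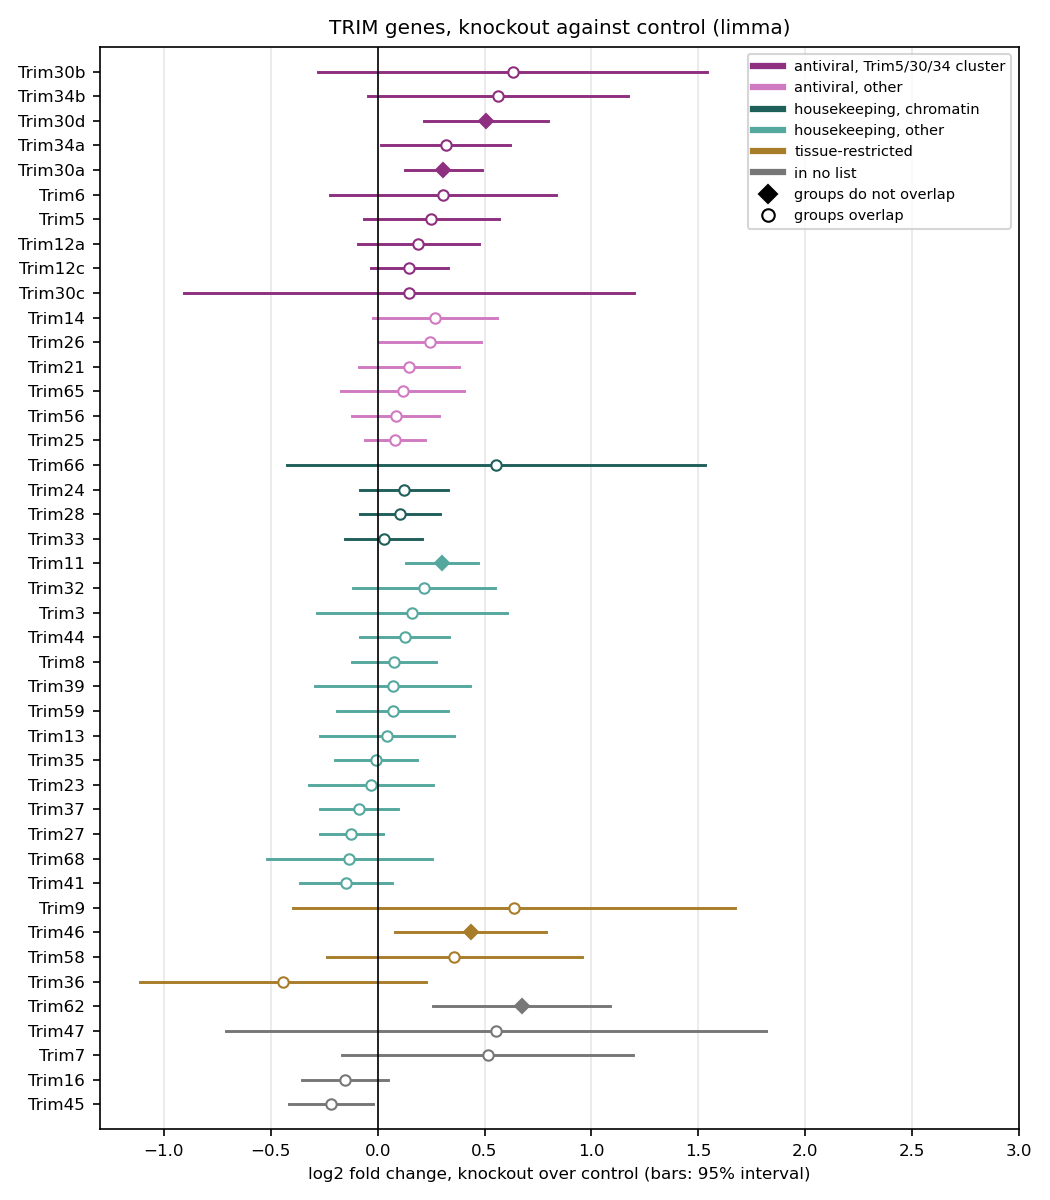
Log2 fold change of the 43 tested TRIM genes, knockout over control (x axis, log2 scale), with 95% intervals as horizontal bars, coloured by the role of the gene. Filled diamonds mark the 5 genes whose 4 knockouts all lay above the 4 controls; the 16 antiviral genes at the top all lie to the right of 0, and none of the 43 passed the test.

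Levels in GMP spanned several orders of magnitude. Per kilobase of exon, which allows genes to be compared, Trim28 stood first by a wide margin, with 5368 ± 606 normalised counts per kb in controls (mean ± SD, n = 4). Trim27 followed at 1079 ± 78.6, then Trim59 at 798 ± 118, Trim35 at 732 ± 81.9, Trim30a at 685 ± 42.3 and Trim44 at 665 ± 94.6. Among the last 4, neighbours in the order of control levels (Trim59, Trim35, Trim30a and Trim44) differed by less than the larger of their SDs. The single gene Trim28 took 29.9% to 33.3% of all normalised counts of the family in any library. The antiviral genes together took 19.1% to 20.9% in controls and 20.3% to 22.8% in knockouts, ranges that overlap.

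At the other end, 5 members did not reach the mean needed for testing: Trim55, Trim2, Trim71, Trim69 and Trim50, with means from 1.74 to 8.11 normalised counts. Trim69 had 5 reads over the 4 controls and 15 over the 4 knockouts, and Trim50, a ligase known from stomach, had 12 and 3. Of 20 genes listed as best known from muscle, neurons, germ cells or erythroid cells, 7 were in the table and 4 could be tested.

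**Figure D2:**
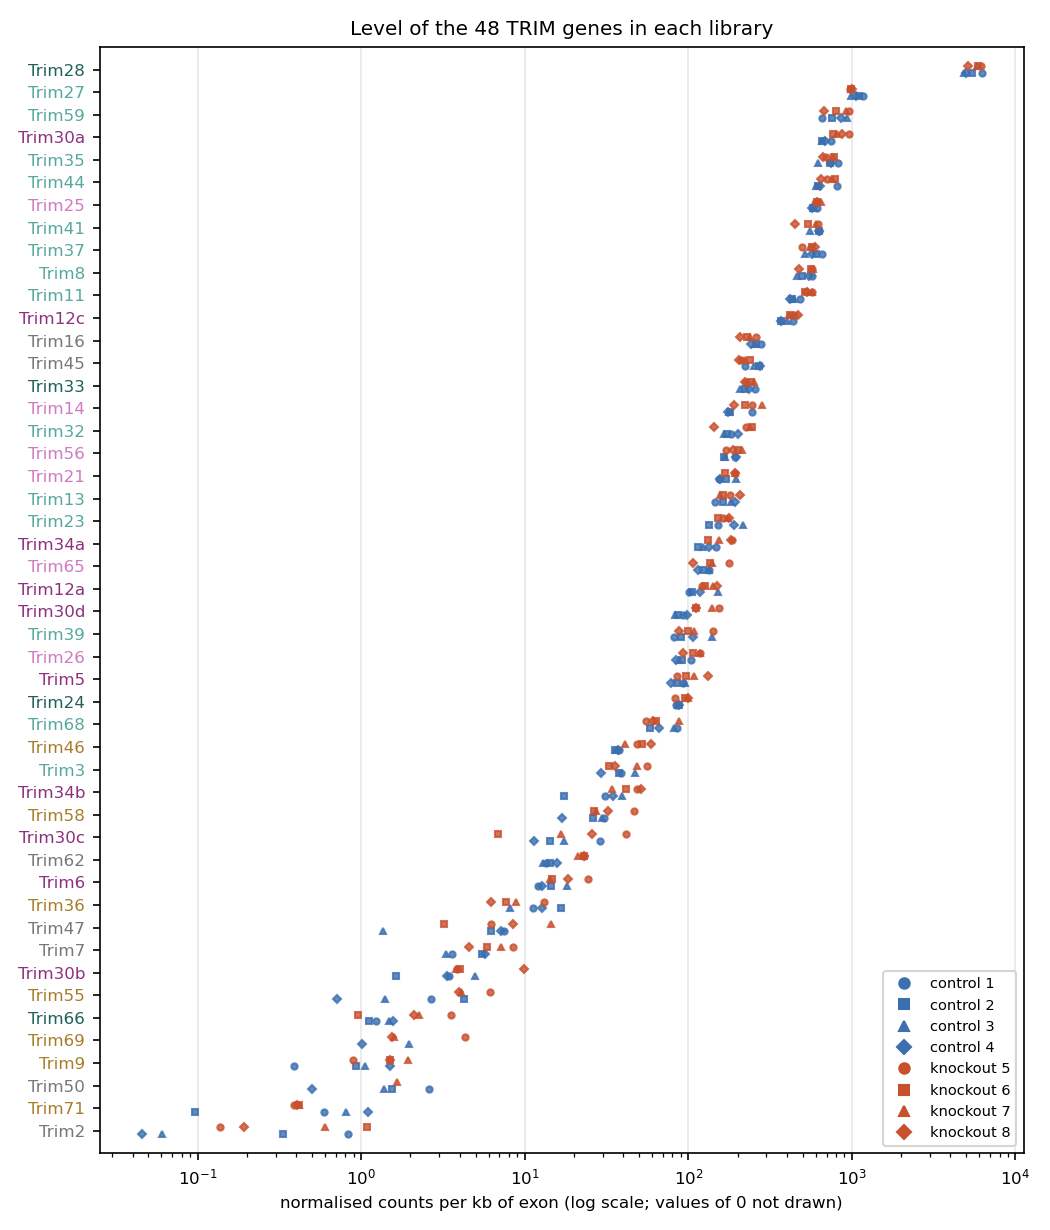
Level of each of the 48 TRIM genes in every library, in normalised counts per kb of exon (x axis, log scale; a value of 0 is not drawn). Circles, squares, triangles and diamonds are single libraries, blue for controls and red for knockouts, and gene names are coloured by role as in the plot of fold changes; Trim28 lies apart at the top, and knockouts and controls lie on top of each other for most genes.

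The Trim5, Trim30 and Trim34 genes form a cluster on chromosome 7, chr7:104218793-104507849 (mm10), and are the mouse relatives of primate TRIM5, a factor that restricts retroviral capsids. All 10 were tested, none passed, and all 10 had a log2 fold change above 0, with a median of 0.31 (Trim30c turned below 0 without control 4, knockout 5 or knockout 8) against -0.01 over all genes tested, of which 47.2% were above 0. The list was chosen with results of these data known, so its direction is a description.

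Short stretches of the promoters are printed because 4 genes of the cluster and Trim26 hold a core motif of the interferon-stimulated response element (ISRE) there. The ISRE motif searched was GAAA, any 2 bases and GAAA again, on both strands in the 250 bases before each RefSeq start (GRCm38.p6). It was found in 978 of 32851 promoters of that length (2.98%). Among the 37 members with a promoter sequence, 5 held it, all from the 14 antiviral genes with a sequence and none from the 13 housekeeping genes. Some members have several promoters, and counted by promoter, as for the 2.98%, 5 of 50 held it. A second motif, TTCNNNGAA (GAS type, N any base), was found in 2306 of 32851 promoters (7.02%). Among members it occurred in Trim30c of the cluster and in Trim45 and Trim46, which are not antiviral. Matches below refer to the ISRE motif alone. The 60 bases that end just before the start are given for Trim30a (chr7:104465194-104465253), Trim30d (chr7:104507850-104507909), Trim5 (chr7:104288107-104288166) and Trim12c (chr7:104353350-104353409), all on the minus strand and written 5′ to 3′ along the gene. Trim26 (chr17:36836976-36837035, plus strand) holds 2 overlapping matches farther out, so bases 170 to 111 before its start are shown. Capitals mark the match, here on the strand opposite to the letters searched.
Trim30a: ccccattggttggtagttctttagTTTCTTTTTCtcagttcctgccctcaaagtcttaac
Trim30d: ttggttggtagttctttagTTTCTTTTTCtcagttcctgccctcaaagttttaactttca
Trim5: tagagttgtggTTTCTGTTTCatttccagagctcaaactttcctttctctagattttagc
Trim12c: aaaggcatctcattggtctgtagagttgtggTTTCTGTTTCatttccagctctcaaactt
Trim26: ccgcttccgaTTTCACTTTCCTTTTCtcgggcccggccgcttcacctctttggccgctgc

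Trim30a and Trim30d have the same match at nearly the same distance, 36 and 41 bases before the start, and their windows share an unbroken run of 118 bases. Trim5 and Trim12c share a different match, 49 and 29 bases before the start. The longest run their windows share is 71 bases, lies farther from the start and does not contain the match. A shorter unbroken run that both windows also share does contain it. The antiviral members with the largest log2 fold changes were Trim30b, Trim34b and Trim30d, and the first 2 of these hold no match in their window, nor does Trim34a. Their last 60 bases, from chr7:104358647-104358706 on the minus strand and chr7:104329411-104329470 and chr7:104244397-104244456 on the plus strand, are given for comparison.
Trim30b: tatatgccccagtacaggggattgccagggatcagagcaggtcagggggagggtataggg
Trim34b: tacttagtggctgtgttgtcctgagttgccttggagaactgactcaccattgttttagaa
Trim34a: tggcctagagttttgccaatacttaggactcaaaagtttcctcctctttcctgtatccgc
Log2 fold changes were 0.15 to 0.51 for the 5 members with a match (median 0.25) and 0.08 to 0.63 for the 9 antiviral members without one (median 0.19), so the ranges overlap. The window of Trim12a, counted without a match, stops at chr7:104315496, short of its annotated start at 104315466. The bases between were not searched. The window of Trim30b, chr7:104358647-104358896, lies inside the annotated gene, which starts at 104369884 on the minus strand. The bases before that annotated start were not searched, so its lack of a match holds for the RefSeq start alone. A match is a description of the letters and no evidence of binding.

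Trim30a (ENSMUSG00000030921, chr7:104409025-104465193) encodes a ligase known in mouse to dampen Toll-like receptor signalling and was the most abundant gene of the cluster. Its normalised counts were 3056.1, 2691.1, 2684.6 and 2827.8 in controls 1 to 4 versus 3934.2, 3141.8, 3316.5 and 3577.3 in knockouts 5 to 8. Every knockout lay above every control, by a small margin between knockout 6 and control 1. The fold was 1.24 (95% interval 1.09 to 1.4; log2 fold change 0.31 ± 0.083, SE; limma adjusted p = 0.102). Trim30d, its neighbour (ENSMUSG00000057596, chr7:104470014-104507849), had 348.8, 326.8, 309.8 and 369.7 in controls 1 to 4 versus 582.5, 419.5, 521.5 and 420.6 in knockouts 5 to 8. Knockouts 5 and 7 were highest, and the groups did not overlap. The fold was 1.42 (interval 1.16 to 1.74, limma adjusted p = 0.096), and the call was made by limma without knockout 8 (adjusted p = 0.0354). With 1 library left out, its limma adjusted p reached 0.2767.

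Trim30a shares 5.98% of the 50-base stretches of its transcripts with other genes and Trim30d 7.49%, mostly with each other. For the paralogs Trim30b and Trim30c that share is under 1%, but few reads were seen. Trim30b had 25.9, 12.3, 37.5 and 25 in controls 1 to 4 versus 28.8, 30.2, 28.6 and 74.1 in knockouts 5 to 8, so knockout 8 alone lay above the controls. Trim30c had 49.4, 24.6, 30 and 19.5 in controls 1 to 4 versus 71.1, 11.7, 28.6 and 44.3 in knockouts 5 to 8, with the lowest and the highest value both in knockouts.

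Trim34a (ENSMUSG00000056144, chr7:104244457-104262234), the mouse relative of an interferon-induced human gene, had 381.7, 298.5, 318.6 and 347.5 in controls 1 to 4 versus 476.3, 341.6, 399.3 and 470.6 in knockouts 5 to 8. Knockouts 5, 7 and 8 lay above all controls and knockout 6 lay within them (fold 1.25, interval 1.01 to 1.54; limma adjusted p = 0.349). Trim34b (chr7:104329471-104336909) had 57.2, 32.1, 72.5 and 63.9 in controls 1 to 4 versus 90, 76.9, 63.1 and 95.3 in knockouts 5 to 8. Here knockout 7 lay within the controls and the other knockouts above them (fold 1.48, interval 0.968 to 2.25; adjusted p = 0.418). The pair cannot be separated well, since 56.8% of the 50-base stretches of Trim34b and 39.8% of those of Trim34a also occur in another gene, most often in each other.

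Trim5 and its relatives Trim12a and Trim12c share sequence in the same way, with 36.3%, 10.4% and 33.0% of their 50-base stretches found elsewhere. Trim5 had 341, 313.6, 349.8 and 288.2 in controls 1 to 4 versus 314.2, 357.2, 397.3 and 486 in knockouts 5 to 8. Its highest value was in knockout 8 and knockout 5 lay within the controls (fold 1.19, interval 0.957 to 1.48). Trim12c, the more abundant relative, had a control mean of 1474 ± 115 and a knockout mean of 1631 ± 95.2 (SD, n = 4 each; fold 1.11, interval 0.977 to 1.25). Trim12a had a control mean of 687 ± 136 and a knockout mean of 776 ± 75.8 (fold 1.14, interval 0.937 to 1.39). Trim6, whose product makes free ubiquitin chains that activate an interferon kinase, had a control mean of 70.1 ± 13.4 and a knockout mean of 87.8 ± 23 (fold 1.24, interval 0.856 to 1.78). For the latter 3 the groups overlapped.

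**Figure D3:**
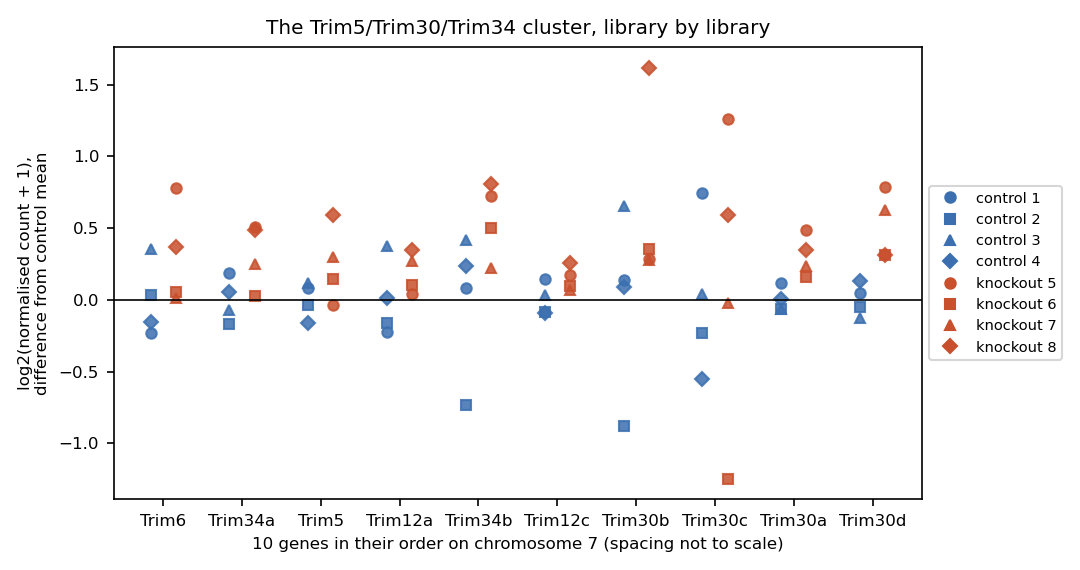
The 10 genes of the Trim5, Trim30 and Trim34 cluster in their order on chromosome 7 (x axis, not to scale), each library as a point: log2(normalised count + 1) as difference from the control mean (y axis), blue for controls and red for knockouts. Most red points lie above 0, the red and blue points separate for Trim30a and Trim30d, and the spread is widest for Trim30b and Trim30c, which had few reads.

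The other antiviral members act mainly on sensing pathways, and 6 of the 8 listed were in the table. Trim31 and Trim38 were not analysed here. All 6 were tested, none passed, and all 6 log2 fold changes were above 0, from 0.08 to 0.27 with a median of 0.13 (Trim65 came to -0.003 without knockout 5). Each had a 95% interval within 1.5-fold of no change in either direction.

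Trim25, the ligase that ubiquitinates the RNA sensor RIG-I, was the most abundant of them and one of the tightest, with 3501.3, 3330.5, 3377.9 and 3272.6 in controls 1 to 4 versus 3459.8, 3522.4, 3747.4 and 3540.7 in knockouts 5 to 8. Knockouts 6, 7 and 8 lay above all controls and knockout 5 did not (fold 1.06, interval 0.96 to 1.17; limma adjusted p = 0.644). Trim56, which acts on the DNA sensing adaptor STING, had a control mean of 1682 ± 153 and a knockout mean of 1784 ± 178 (SD, n = 4 each; fold 1.06, interval 0.921 to 1.22). Trim21, a cytosolic antibody receptor that sends antibody-coated virus to the proteasome, had 569.1, 631, 727.1 and 576.3 in controls 1 to 4 versus 715.7, 620, 714.8 and 714.1 in knockouts 5 to 8. Knockout 6 lay near the middle of the controls and the other knockouts at 714.1 to 715.7, below control 3 (fold 1.11, interval 0.941 to 1.3).

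Trim26, which regulates the interferon factor IRF3, had 708.6, 628.1, 605.9 and 579.1 in controls 1 to 4 versus 812.1, 730, 812.4 and 638.1 in knockouts 5 to 8. Knockouts 5, 6 and 7 lay above all controls and knockout 8 within them (fold 1.18, interval 1 to 1.4; limma adjusted p = 0.367). Trim14, an adaptor of cGAS and MAVS signalling, had 1061.3, 784.9, 770.8 and 761.6 in controls 1 to 4 versus 1065.9, 966.5, 1219.5 and 820 in knockouts 5 to 8. Control 1 lay with knockouts 5 to 7, and knockout 8 lay just above the other 3 controls (fold 1.21, interval 0.984 to 1.47; adjusted p = 0.419). Without those 2 libraries Trim14 had a log2 fold change of 0.48 (limma adjusted p = 0.0127) and Trim26 one of 0.38 (limma adjusted p = 0.0402). For both genes the left-out control 1 was the highest control and knockout 8 the lowest knockout. In that fit, sample order and genotype cannot be told apart. Trim14 shares 1356 exonic bases, 31.3% of its length, with Nans on the opposite strand, a gene with a mean of 6174 normalised counts. Whether reads were counted by strand is not stated in the sources used here, so the level of Trim14 is uncertain. Trim65, which acts on the RNA sensor MDA5, had 790.1, 722.6, 792 and 678.2 in controls 1 to 4 versus 1038.9, 799.1, 819.3 and 625.6 in knockouts 5 to 8, with the highest and the lowest value both in knockouts (fold 1.08, interval 0.889 to 1.32).

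Set by library, the 10 genes of the cluster averaged 0.50, 0.05, 0.22 and 0.57 above the control mean in knockouts 5 to 8, in log2 units. The controls lay between -0.24 and 0.17, so that knockout 6 fell within them. For the other 6 antiviral genes the knockouts gave 0.22, 0.12, 0.27 and 0.01 and the controls -0.07 to 0.11, so knockout 8, the highest for the cluster, was the lowest here. Of 29 interferon-stimulated genes outside the family, 11 rose and none fell, where 199 and 35 of all 16688 genes tested did. Over these 29 genes the same measure was 0.72, 0.59, 0.58 and 1.21 in knockouts 5 to 8 and -0.15 to 0.20 in controls. Summed over the 16 antiviral genes, normalised counts were 13391 to 14954 in controls and 15243 to 16628 in knockouts. Of the 16 genes, 14 lay above their control mean in each of the 4 knockouts, and 13, 2, 9 and 5 did so in controls 1 to 4. The share of all genes above their control mean in each library was not determined. The mean log2 difference over the 16 was 0.40, 0.08, 0.24 and 0.36 in knockouts 5 to 8, and knockout 6 lay below controls 1 and 3 (both 0.11). The summed level of 8 dendritic cell markers was 4240 to 5138 in controls and 6120.1 to 7183 in knockouts. Of the 4 tested markers 2 rose, where 1.4% of all genes tested changed in either direction. Bst2, 1 of these 2, is also on the interferon list (control mean 2315, knockout mean 3539, limma adjusted p = 0.00982). For 8 eosinophil markers the sums were 17867 to 31559 in controls and 8015, 10158, 5358 and 22532 in knockouts 5 to 8, so that knockout 8 alone lay among the controls, and 2 of 7 tested fell. For 7 mast cell and basophil markers they were 12664 to 16388 in controls and 9052, 13421, 10213 and 22382 in knockouts 5 to 8, and 1 of 7 fell. For 8 erythroid and megakaryocyte markers they were 1070.3 to 1390 in controls and 1013 to 2374 in knockouts, highest in knockout 8, and none of 5 tested passed. For 8 late neutrophil markers they were 843.2 to 1409 in controls and 1019 to 1910 in knockouts, and none of 6 tested passed. The sums of 7 monocyte and macrophage markers were 9279.5 to 11042.5 in controls and 8244 to 11297 in knockouts, and 1 of 5 tested rose. The part of these lists in the antiviral values was not tested. The interferon list had a median fold of 1.82, against 1.19 for the 16 antiviral TRIM genes and 0.99 over all genes tested.

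**Figure D4:**
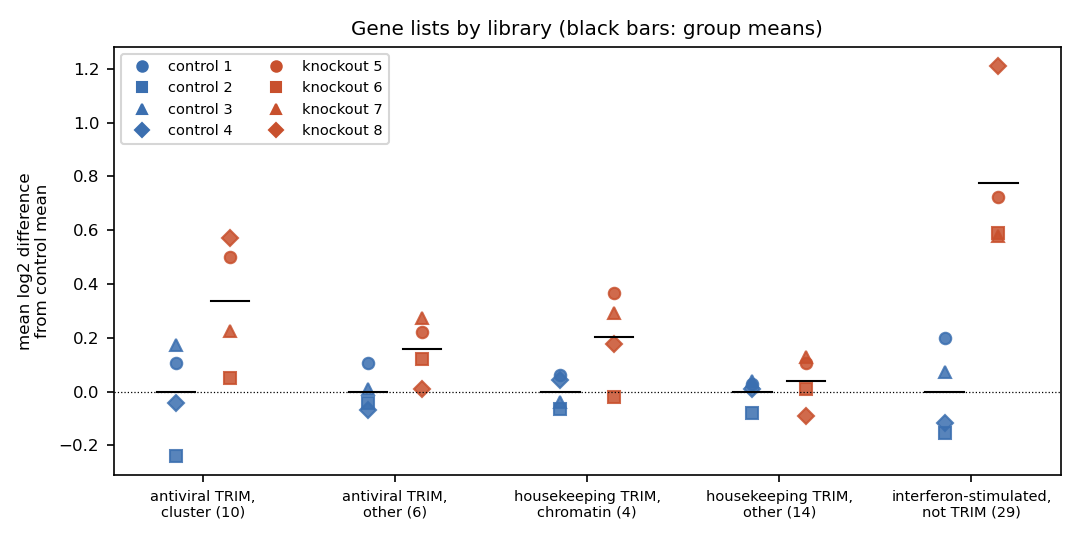
Mean log2 difference from the control mean (y axis) over each gene list (x axis, number of genes tested in brackets), one point per library, blue for controls and red for knockouts, with black bars at the group means. The red points of the interferon-stimulated genes lie above all blue ones, from 0.58 to 1.21, while in each of the 4 TRIM lists at least 1 red point lies among the blue ones.

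The housekeeping members lay closer to no change. Of 18 tested, none passed, 12 log2 fold changes were above 0 and 6 below, and the median was 0.07, against 0.25 for the antiviral list. The signs of Trim13, Trim23, Trim33, Trim35, Trim39 and Trim59 turned with 1 library left out, and the median came to 0.028 without knockout 5, 0.034 without control 2 and 0.119 without knockout 8. The 95% interval lay within 1.5-fold of no change for 16 of the 18, for 10 of the 16 antiviral genes and for 63.5% of all genes tested. The 2 exceptions were Trim66, with 57 reads over the controls, and Trim3. The difference between the lists was not tested, since both were chosen with results known.

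Among the chromatin cofactors, Trim28 (ENSMUSG00000005566, chr7:12999114-13031035), the corepressor KAP1 that silences endogenous retroviruses through SETDB1 and works with MDM2 on p53, had 25826, 22425, 20172.7 and 20857.5 in controls 1 to 4 versus 25764.4, 24541.6, 24066.6 and 21375.1 in knockouts 5 to 8. Control 1 lay just above the highest knockout, and the groups overlapped (fold 1.07, interval 0.944 to 1.23; limma adjusted p = 0.664). Without control 1 and knockout 8 its log2 fold change was 0.23 (limma adjusted p = 0.0536), a fit in which sample order and genotype cannot be told apart. Trim33, a ligase of SMAD4 with a role in blood cell differentiation, had a control mean of 2266 ± 205 and a knockout mean of 2308 ± 144 (SD, n = 4 each; fold 1.02, interval 0.901 to 1.16), with a sign that turned on leaving out control 3 or knockout 7. Trim24, which promotes the degradation of p53, had 720.3, 743.4, 733.3 and 742.2 in controls 1 to 4 versus 702.2, 809.8, 852.8 and 846.9 in knockouts 5 to 8. The controls agreed within 10.7 (SD), 3 knockouts lay above them and knockout 5 below (fold 1.09, interval 0.945 to 1.26). Trim66, listed here as a chromatin cofactor though best known from the male germline, had a control mean of 13.7 ± 2.1 and a knockout mean of 22.4 ± 10.8. Its level was 1.78 normalised counts per kb, and its log2 fold change of 0.56 was the highest of the 18 housekeeping members.

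Trim27, a ligase with roles in endosome traffic, had 6420.3, 6088.7, 5396.7 and 5827.1 in controls 1 to 4 versus 5385.5, 5443.6, 5430.3 and 5470.3 in knockouts 5 to 8. The knockouts agreed within 35.4 (SD) and lay at the low end of the controls (fold 0.917, interval 0.828 to 1.02; limma adjusted p = 0.471). Trim37, a centrosome regulator, had a control mean of 4244 ± 416 and a knockout mean of 3991 ± 312 (SD, n = 4 each; fold 0.942, interval 0.83 to 1.07), and Trim44, which lacks the RING domain, had a control mean of 3754 ± 534 and a knockout mean of 4081 ± 346 (fold 1.09, interval 0.945 to 1.26). Trim44 was called without control 1 and knockout 8 together (log2 fold change 0.27, limma adjusted p = 0.029), where sample order and genotype cannot be told apart. Control 1 was its highest control and knockout 8 its lowest knockout. Trim35 had a control mean of 3379 ± 378 and a knockout mean of 3351 ± 243 (fold 0.995, interval 0.871 to 1.14), with a log2 fold change of -0.01 whose sign turned at equal totals (0.03). Trim59, a membrane-anchored member, had a control mean of 2674 ± 395 and a knockout mean of 2811 ± 428 (fold 1.05, interval 0.877 to 1.26). For all 4 the groups overlapped.

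Trim41 had 2208.8, 2196.1, 1945.1 and 2203.3 in controls 1 to 4 versus 2169.7, 1899.9, 2122.6 and 1575.5 in knockouts 5 to 8, with knockouts 6 and 8 below all controls and control 3 below the other controls (fold 0.902, interval 0.777 to 1.05). Trim11 (ENSMUSG00000020455, chr11:58978093-58991458), a ligase linked to the clearance of misfolded proteins, is named for its values, outside the rule for named genes. It had 1730.7, 1542.5, 1591.5 and 1502.9 in controls 1 to 4 versus 2052.7, 1856.1, 2041.8 and 1893.1 in knockouts 5 to 8. All knockouts lay above all controls and the SDs of both groups were near 99.4 (fold 1.23, interval 1.1 to 1.39; log2 fold change 0.30 ± 0.079, SE; limma adjusted p = 0.088). It passed the test of limma without control 1 (adjusted p = 0.0466) and without knockout 8 (adjusted p = 0.0482). Over the 8 fits that leave out 1 library, its log2 fold change ranged from 0.27 to 0.34. Its limma adjusted p reached 0.3121 in these fits. Trim32, known in mouse as a p53-induced ligase of p53 and also named for its values, had 586.3, 557.3, 530.9 and 645.8 in controls 1 to 4 versus 729.2, 787.4, 772.9 and 462 in knockouts 5 to 8. Knockouts 5, 6 and 7 lay above all controls and knockout 8 below all of them (fold 1.16, interval 0.923 to 1.47; adjusted p = 0.596). Without control 1 and knockout 8 its log2 fold change was 0.41 (limma adjusted p = 0.0393). That fit leaves out its lowest value, and sample order and genotype cannot be told apart there.

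The other non-overlapping members are in neither list. Trim62 (ENSMUSG00000041000, chr4:128883580-128911328), a ligase known as a regulator of cell polarity, had 67.4, 71.8, 65 and 78.8 in controls 1 to 4 versus 115.2, 115.8, 106.5 and 115.5 in knockouts 5 to 8. The knockouts agreed within 4.51 (SD) and the level was low, at 18.3 normalised counts per kb over all 8 libraries (fold 1.6, interval 1.2 to 2.13; log2 fold change 0.67 ± 0.193, SE; limma adjusted p = 0.123). Its adjusted p was 0.0127 by limma with no intensity trend and 0.0476 by DESeq2. Trim46 (ENSMUSG00000042766, chr3:89234177-89246309), which bundles microtubules in the axon of neurons, had 143.4, 135.1, 137.4 and 141.8 in controls 1 to 4 versus 184.6, 197.6, 155.8 and 223.3 in knockouts 5 to 8. The controls agreed within 3.84 (SD) and knockout 8 was highest (fold 1.35, interval 1.06 to 1.73; adjusted p = 0.262). Trim46 shares 239 exonic bases with Krtcap2 on the opposite strand, a gene with a mean of 4229 normalised counts, so its level is uncertain.

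**Figure D5:**
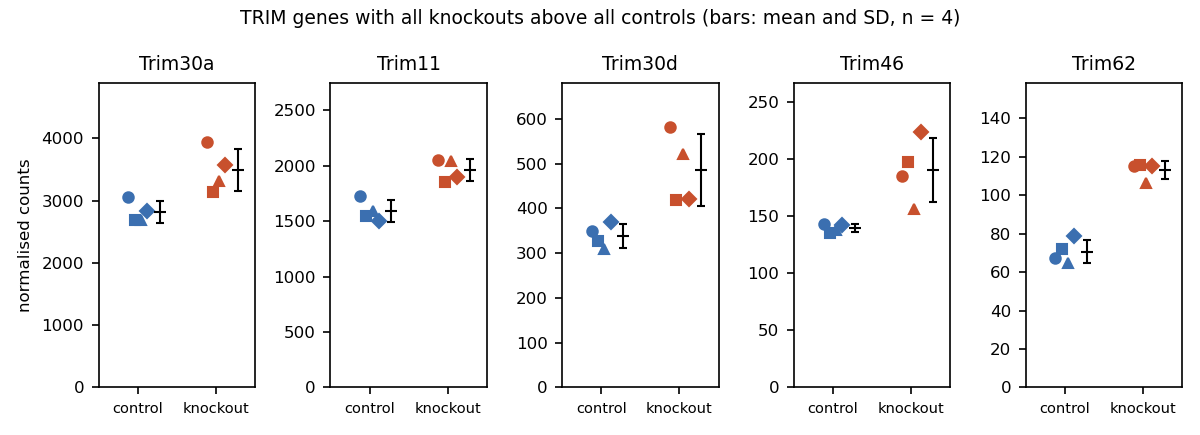
Normalised counts (y axis, from 0) of the 5 TRIM genes for which the 4 knockouts (red) all lay above the 4 controls (blue), each point a library, with black bars for the group mean and SD (n = 4 each). For Trim30a the gap lies between 3056 in control 1 and 3142 in knockout 6, and for Trim62 between 78.8 in control 4 and 106.5 in knockout 7.

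On the lower side, the 4 lowest log2 fold changes among members with a mean of at least 50 were those of Trim36, Trim45, Trim16 and Trim41, and none passed. Trim45, a regulator of MAP kinase and NF-kB signalling, had 1334.8, 1616.2, 1501.6 and 1649.3 in controls 1 to 4 versus 1253.2, 1435.6, 1325 and 1224.2 in knockouts 5 to 8. It was the 1 member lower at an unadjusted p below 0.05, and knockout 6 lay within the controls (fold 0.86, interval 0.75 to 0.985; limma adjusted p = 0.32). Trim16, which takes part in the autophagy of damaged lysosomes, had a control mean of 1184 ± 70.5 and a knockout mean of 1067 ± 102 (SD, n = 4 each; fold 0.899, interval 0.783 to 1.03). Trim36 had a control mean of 60.2 ± 17.5 and a knockout mean of 44.2 ± 14.6 (fold 0.736, interval 0.462 to 1.17). In both the groups overlapped. The remaining tested members (Trim3, Trim8, Trim13, Trim23, Trim39 and Trim68 among the housekeeping genes, and Trim7, Trim9, Trim47 and Trim58) also had overlapping groups, with log2 fold changes of -0.13 to 0.64.

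TRIM proteins that go under another symbol were set beside the members. Pml, the organiser of nuclear bodies and an interferon-induced gene that p53 also induces, had 2175.1, 2355.7, 2036.3 and 2220 in controls 1 to 4 versus 2723.4, 2832.3, 2778.2 and 2482.1 in knockouts 5 to 8. All knockouts lay above all controls (fold 1.23, interval 1.1 to 1.38; limma adjusted p = 0.0808, DESeq2 adjusted p = 0.0126). Limma called it at equal totals (adjusted p = 0.0468) and without control 1 and knockout 8 (adjusted p = 0.0173). In the latter fit, sample order and genotype cannot be told apart. With 1 library left out, its limma adjusted p ranged from 0.0226 to 0.232. Mefv, the pyrin gene, had a control mean of 2416 ± 182 and a knockout mean of 2338 ± 364 (SD, n = 4 each; fold 0.961, interval 0.823 to 1.12). Mid1, a microtubule-associated ligase, had a control mean of 88.2 ± 30.8 and a knockout mean of 115 ± 82. Knockout 6 had 237.5, while knockouts 5, 7 and 8 had 81.9, 67 and 73.1, all below the control mean. With 1 library left out, the log2 fold change of Mid1 ranged from -0.19 to 0.43. Mid2 had too few reads to be tested. Limma on all 8 libraries called none of these.

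Of 28 tested partners on which TRIM ligases act or with which they work, 1 rose and none fell (1.4% of all genes tested changed). It was Mdm2, the ligase of p53 and itself a p53 target, with 1987, 2067.7, 2291.1 and 2181.1 in controls 1 to 4 versus 3659.7, 2887.8, 3249.5 and 2846.8 in knockouts 5 to 8 (fold 1.48, interval 1.29 to 1.69; limma adjusted p = 0.00428). Its groups did not overlap. Isg15, the interferon-induced ubiquitin-like modifier, had a control mean of 85.1 ± 18.1 and a knockout mean of 207 ± 93.5 (fold 2.27; adjusted p = 0.0745), and Ube2l6, the enzyme that conjugates it, had a control mean of 222 ± 28.7 and a knockout mean of 378 ± 109 (fold 1.66; adjusted p = 0.0745). Ube2w, which places the first ubiquitin on TRIM5 and TRIM21 proteins, had a control mean of 2331 ± 139 and a knockout mean of 1872 ± 119.9 (fold 0.803; adjusted p = 0.0693). In all 3 the groups did not overlap, and limma on all 8 libraries made no call. DESeq2 called them (adjusted p = 0.00109, 0.00411 and 0.0107), and so did limma without control 1 and knockout 8 (adjusted p = 0.0478, 0.0417 and 0.0308). In that limma fit, sample order and genotype cannot be told apart. Limma also called Ube2l6 at equal totals (adjusted p = 0.0479). With 1 library left out, the limma adjusted p ranged from 0.0264 to 0.2544 for Isg15, 0.0674 to 0.2255 for Ube2l6 and 0.0494 to 0.2072 for Ube2w. Of the 28, 4 had all knockouts above all controls and 2 had all below, where 3.99% and 3.42% of all genes tested did. Among these were Irf7 (fold 1.85, limma adjusted p = 0.2085, DESeq2 adjusted p = 0.0389) and Tbk1 (fold 0.8915, limma adjusted p = 0.374, DESeq2 adjusted p = 0.353). Isg15 and Irf7 are also on the interferon list. Isg15, Ube2l6, Ube2w, Irf7 and Tbk1 are named for their values, outside the rule. The median log2 fold change of the partners was 0.01, and the fold was within 1.25 of no change for 24 of the 28.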

How the data were processed

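The authors deposited a signal table: per the submitters' processing notes the authors used GSNAP, featureCounts 2.0.1, DESeq2 1.30.1 and the build mm10, and the values, as they stand in the deposited table, are counts scaled by a factor of each library and given to 1 decimal. The sources used here state neither the annotation nor the strand setting. The deposited gene lengths (other) were equal to the exonic length in GENCODE M21 for all 48 members. Reads were recovered by dividing each value by its library's step; 99.997% of values above 0 came out whole within 0.051 normalised counts.

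Testing used limma 3.58.1 (R 4.3.3) with an intensity trend on log2(normalised count + 1), over genes with a mean of at least 10, with Benjamini-Hochberg adjustment over all of them; fold changes refer to this scale and, for low genes, can differ from those of the count models. Alternatives were edgeR 4.0.16 and DESeq2 1.42.0 on the recovered reads, no filter on the mean, a minimum mean of 50, a pseudocount of 0.5 or of 5, equal totals, no trend, each library left out, and control 1 and knockout 8 left out together. Shared 50-base stretches were counted over GENCODE M21 transcripts on the sense strand, and promoters are from RefSeq (GRCm38.p6).

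The members, lists and alternatives were chosen with earlier results of these data known. Named were all antiviral and chromatin members, the 6 other members highest per length, the 4 highest and 4 lowest log2 fold changes with a mean of at least 50, and any member past the threshold. Groups came from the labels, which name separate mice. No replicate number occurs in both groups. PCR copies are not independent molecules, and read totals cover counting error only.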

Additional observations from a re-analysis of the deposited data

Results flagged for a closer look

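Within-group spread was examined for 86 groups of 4 libraries (43 members in controls and in knockouts), and in 6 of them 1 library stood far from the other 3; chance gives about 1 in 20 groups. Trim44 had 4548.5 normalised counts in control 1, against 3404.2 to 3579.3 in the other libraries of its group. Trim41 had 1945.1 normalised counts in control 3, against 2196.1 to 2208.8 in the other libraries of its group. Trim14 had 1061.3 normalised counts in control 1, against 761.6 to 784.9 in the other libraries of its group. Trim21 had 620 normalised counts in knockout 6, against 714.1 to 715.7 in the other libraries of its group. Trim62 had 106.5 normalised counts in knockout 7, against 115.2 to 115.8 in the other libraries of its group. Trim30b had 74.1 normalised counts in knockout 8, against 28.6 to 30.2 in the other libraries of its group. Control 1 and knockout 8, which stand apart over the whole table, are among them with 2 flags and 1. The cause was not tested.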

How the results depend on the processing

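The count of TRIM genes higher in knockouts, 0 by limma, became 4 by DESeq2 on the recovered reads, 1 at equal totals (Trim30a, adjusted p = 0.0479), 1 with no intensity trend (Trim62) and 7 without control 1 and knockout 8 together (3.9% of all genes were called higher there); the cause was not tested. Leaving out 1 library gave 0 to 2, with Trim11 called without control 1 and Trim30d and Trim11 without knockout 8. Without knockout 8, alone or together with control 1, sample order and genotype cannot be told apart. No setting called a TRIM gene lower. The count over the whole table, 234, was 558 by DESeq2, 104 with no intensity trend, 1440 without control 1 and knockout 8 together, and 135 to 569 with 1 library left out. The antiviral median, 0.247, was 0.201 to 0.290 with 1 library left out. The housekeeping median, 0.071, was 0.028 without knockout 5, 0.034 without control 2 and 0.119 without knockout 8. Log2 fold changes near 0 turned sign for Trim35 at equal totals (0.028), without control 1 and knockout 8 together (0.091) and with 1 library left out (from -0.082 to 0.051). With 1 library left out, they also turned for Trim30c (-0.226 to 0.609), Trim33 (-0.020 to 0.082), Trim59 (-0.018 to 0.167), Trim65 (-0.003 to 0.241), Trim13 (-0.04 to 0.101), Trim23 (-0.148 to 0.086) and Trim39 (-0.062 to 0.218), so that 35 of 43 tested members kept their sign. Trim23 also turned at equal totals (0.005) and Trim13 without control 1 and knockout 8 together (-0.113). Equal totals moved the median of all genes from -0.01 to 0.02. No paired analysis was possible because the groups share no replicate numbers. Genes of few reads, such as Trim30b, Trim30c and Trim66, have intervals too wide to show a change of 1.5-fold.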

Other observations

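Between the first and the last gene of the chromosome 7 cluster, 289.1 kb apart, the table lists 5 genes that are no members, none of them protein-coding, and 3 were tested. The pseudogene Gm16464 had 123 ± 12.4 normalised counts in controls against 124 ± 27.6 in knockouts (SD, 4 libraries each; log2 fold change -0.01). The non-coding Gm15133 had 14.6 ± 9.16 and 24.7 ± 10.8, and none of the 3 passed the test of limma. Gm47248, which overlaps Trim34a on the opposite strand, had 0 reads in the controls and 12 in the knockouts.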
